A study of Rattus norvegicus with 24 samples.

Results

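The miR-30 family was followed through the serum of 23 rats by small RNA sequencing. Its members were taken by name from the table of mature microRNA (miRNA) counts, with loci of the same name summed: rno-miR-30a-5p, rno-miR-30c-5p, rno-miR-30d-5p, rno-miR-30e-5p, rno-miR-30a-3p and rno-miR-30e-3p (written below without the prefix for rat), which are 6 of the 753 names in the table and 6 of the 136 that held enough counts to be tested. The rats were male Wistar Kyoto rats, which received their diet from 4 weeks of age for 8 weeks and were then placed in filtered air or in ozone for 4 h on each of 2 days. There were 4 groups: normal diet in air (6 rats), normal diet in 0.8 ppm ozone (6 rats), diet with 6% fish oil by weight in air (6 rats) and the same fish oil diet in 0.8 ppm ozone (5 rats). The normal diet was the standard chow of the animal facility, so fish oil and the other differences between these diets cannot be told apart. The labels describe 24 samples, and replicate 2 of the fish oil ozone group was not analysed here.

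MiRNAs of the miR-30 family are cut from hairpin precursors, each of which can give a mature strand from its 5′ arm and another from its 3′ arm. Target messages are recognised mainly through the seed, bases 2 to 8 of the mature strand, and strands with the same seed have largely the same predicted targets. The family is made in most tissues and is known in epithelium, kidney, heart muscle and fat cells, where its 5p strands restrain programmes such as epithelial to mesenchymal transition. Serum holds RNA released from many tissues, so more cells that release a miRNA and more RNA released by each cell cannot be told apart.

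The mature sequences are shown because they give the seed that several members share and the single base that separates miR-30a-5p from miR-30e-5p. They are RefSeq sequences (annotation GRCr8), written 5′ to 3′ with the seed in capitals; 3 of the 4 members from the 5′ arm and 1 of the 2 from the 3′ arm matched by name.
miR-30a-5p: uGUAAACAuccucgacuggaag
miR-30e-5p: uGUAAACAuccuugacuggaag
miR-30c-5p: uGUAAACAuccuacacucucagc
miR-30a-3p: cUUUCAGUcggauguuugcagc
The seed GUAAACA was shared by miR-30a-5p, miR-30c-5p, miR-30e-5p and miR-384-5p, which made up 4 of the 693 mature rat names in that table (0.577%). MiR-30d-5p and miR-30e-3p were not matched by name, so their seeds were not compared. The 4 names may therefore not be all that share this seed. The seed of miR-30a-3p, UUUCAGU, belonged to 1 of the 693 names, so the strands of the 2 arms do not share a seed. Counted from 1 at the 5′ end, miR-30a-5p and miR-30e-5p differed by a single substitution, C13U, and 21 of their 22 bases were the same. MiR-30c-5p had the same first 12 bases and 17 of 22 in all. Reads of miR-30a-5p and miR-30e-5p with a sequencing error at that base could be counted under the other name; how reads matching several miRNAs were handled is not given in the sources used here, so the split between those 2 names is uncertain to that extent.

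The hairpins that carry the arm results below are printed here, with the mature strands named above in capitals (both arms of Mir30a and the 5′ arm of Mir30e; RefSeq, GRCr8).
Mir30a: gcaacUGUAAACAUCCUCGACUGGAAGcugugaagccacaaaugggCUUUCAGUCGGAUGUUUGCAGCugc
Mir30e: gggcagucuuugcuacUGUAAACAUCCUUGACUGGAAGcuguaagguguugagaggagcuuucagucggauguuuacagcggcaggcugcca
In the deposited coordinates, on rat build rn5 and with the files not saying whether they count from 0 or 1, miR-30a-5p lay at chr9:28377828-28377850 and miR-30a-3p at chr9:28377869-28377891. MiR-30e-5p lay at chr5:143497806-143497828 and miR-30e-3p at chr5:143497764-143497786. MiR-30d-5p lay at chr7:109228690-109228712. MiR-30c-5p was listed at 2 loci. That at chr9:28397577-28397600 held 780 of its counts (92.3%) and began 19708 bases from the start of miR-30a-3p. That at chr5:143494807-143494830 held 65 (7.69%) and began 2957 bases from the start of miR-30e-3p. Both loci carry the same mature name, and how reads matching several loci were assigned is not given. The split was therefore not shown to reflect where the reads came from. By gene names in the RefSeq table, Mir30e and Mir30c1 overlapped Nfyc, a subunit gene of a CCAAT-binding transcription factor, Mir30d overlapped LOC102551574, Mir30c2 overlapped LOC134480562 and Rbx1-ps1, and Mir30a overlapped no other listed gene.

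The libraries held 23276 to 94264 miRNA counts each, and the fish oil libraries were the smaller ones, with means of 37262 in air and 33302 in ozone against 65638 and 63357 on the normal diet. Of all reads, as implied by the authors' RPM values, miRNAs made up 1.36% and 1.56% on the normal diet and 0.660% and 0.826% on fish oil. Lists of miRNAs known from particular tissues or cell types, some of them pooled, also differed between the diets. Smooth muscle and endothelial miRNAs held a mean of 13.4%, 13.2%, 26.95% and 30.6% of counts (normal diet air, normal diet ozone, fish oil air, fish oil ozone), and 4 of 4 tested were higher on fish oil. Most of these counts were miR-143-3p, which alone held 12.4%, 11.8%, 25.1% and 28.2%. Platelet and leukocyte miRNAs held 23.7%, 24.4%, 11.5% and 7.93%, and 2 of 4 were lower, with miR-142-3p at 0 in the fish oil ozone libraries. Liver miRNAs held 11.9%, 9.07%, 5.66% and 8.25% (1 of 3 lower), erythrocyte miRNAs 1.65%, 1.64%, 2.13% and 1.75% (2 of 4 higher) and striated muscle miRNAs 0.108%, 0.145%, 0.165% and 0.143% (0 of 3 changed, with miR-208a-3p at 0 in every library). These calls (edgeR, adjusted p below 0.05) were for fish oil averaged over exposures and relative to the other miRNAs. In that comparison 27 of all 136 tested miRNAs were called higher and 23 lower. Relative to all reads, 1 of the 136 was called higher and 70 lower. The part of these lists in the results below was not tested. Because the total and its makeup both moved with the diet, each result is given on a scale relative to the other miRNAs and, where it differs, relative to all reads.

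The 6 members together made up 4.27 ± 0.679% of miRNA counts in normal diet rats breathing air and 4.52 ± 0.702% in the ozone group (mean ± SD, n = 6 each). In the fish oil groups they made up 5.77 ± 0.600% in air (n = 6) and 6.73 ± 1.08% in ozone (n = 5). Relative to all reads the summed members were not higher on fish oil. Averaged over exposures, the log2 differences there were −0.46 (SE 0.28) for the summed 5p members and −0.94 (SE 0.3265) for the summed 3p members. Relative to the other miRNAs they were 0.42 (SE 0.1447) and −0.03 (SE 0.1655). The sums were not tested. MiR-30a-5p was the most abundant, with 30855 counts over the 23 libraries (642 to 2116 per library), and ranked 6 of the 136 tested miRNAs by mean level. MiR-30d-5p had 15294 counts (273 to 1205, rank 16) and miR-30e-5p 6994 (150 to 500, rank 31). The strands of the 3′ arm were rarer: miR-30e-3p had 2163 counts (30 to 197, rank 56) and miR-30a-3p 1473 (19 to 114, rank 65). MiR-30c-5p had 845 counts (12 to 123, rank 87), so its values carry the largest counting error. The mature strands are nearly equal in length, so this order is not one of length, but small RNA library kits capture sequences unequally and the order between miRNAs includes that bias.

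The order was nearly the same in every rat. MiR-30a-5p exceeded miR-30d-5p in 23 of 23 libraries, and miR-30d-5p exceeded miR-30e-5p in 22 of 23, the exception being fish oil ozone 3. MiR-30e-5p exceeded its own 3p strand in 23 of 23, and so did miR-30a-5p. The lower ranks were less fixed: miR-30e-3p exceeded miR-30a-3p in 20 of 23 libraries and miR-30a-3p exceeded miR-30c-5p in 19 of 23. The neighbours miR-30a-3p and miR-30c-5p overlapped in their ranges in each of the 4 groups.

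Levels below are CPM, counts relative to a fixed total, after TMM scaling (trimmed mean of M values), which centres the bulk of miRNAs between libraries. For miR-30a-5p the normal diet air libraries 1 to 6 held 19355, 18606, 22204, 39868, 25528 and 20261 CPM, and the normal diet ozone libraries 17003, 22341, 19948, 25168, 18624 and 29904. The fish oil air libraries held 36060, 23254, 22673, 40701, 34470 and 27318 CPM, and fish oil ozone libraries 1, 3, 4, 5 and 6 held 47556, 45336, 38287, 52469 and 22522. In ozone, 4 of the 5 fish oil libraries lay above the whole normal diet range and 1, fish oil ozone 6, lay within it; in air the groups overlapped, since normal diet air 4 stood near the top of the fish oil range.

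MiR-30e-5p had 3323, 4718, 6225, 5488, 5328 and 5236 CPM in normal diet rats breathing air, and 3391, 5925, 4714, 4169, 4695 and 6729 in ozone. On fish oil it had 6768, 5433, 7266, 10605, 7498 and 7666 CPM in air and 8157, 14071, 7743, 8635 and 5403 in ozone. In each exposure all but 1 fish oil library lay above the highest normal diet library, so a single fish oil library in each exposure fell within the normal diet range. MiR-30d-5p did not separate by diet: its lowest, median and highest values were 11874, 13147 and 15011 CPM in normal diet rats breathing air, 11360, 14186 and 16152 in ozone, 7457, 12389 and 16170 on fish oil in air, and 9205, 12415 and 18068 in ozone.

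**Figure D1:**
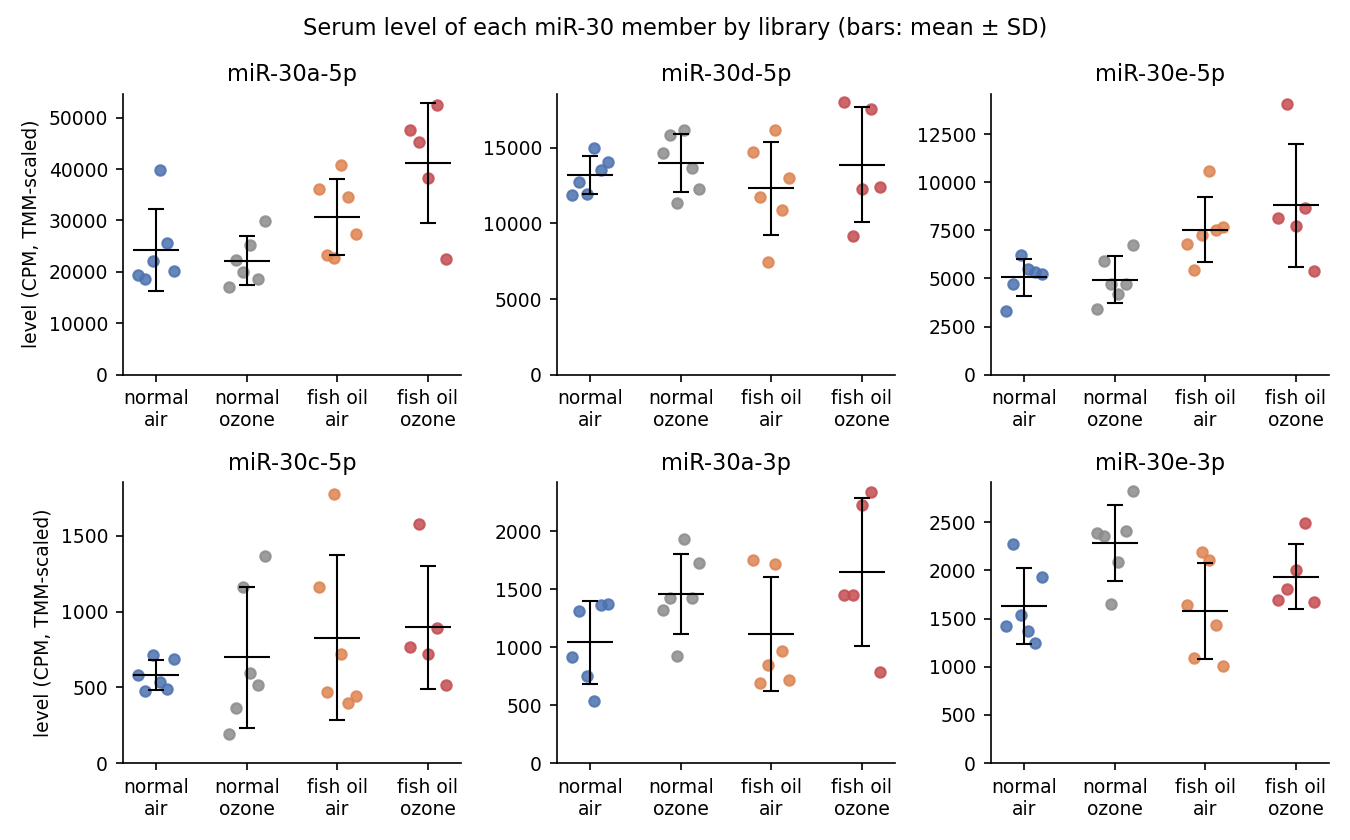
Level of each member in every library, in CPM after TMM scaling, by group; points are libraries and bars give the mean ± SD (n = 6, 6, 6 and 5). The fish oil means of miR-30a-5p and miR-30e-5p lie above the normal diet means on this scale, with 4 of 5 fish oil ozone libraries above all normal diet ozone libraries for each, while the other 4 members overlap broadly; relative to all reads these 2 were not higher.

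For fish oil averaged over air and ozone, miR-30a-5p and miR-30e-5p rose relative to the other miRNAs, and none of the other 4 members passed the test. The count of 2 members called has to be read against a background of 36.8% of all 136 miRNAs called in that comparison, 19.9% of them in the higher direction (edgeR quasi-likelihood F test, two-sided, Benjamini-Hochberg adjusted over the 136, threshold 0.05). The median log2 fold change was 0.28 over the 6 members and 0.06 over all 136. MiR-30e-5p rose by 0.71 on the log2 scale (SE 0.162, 1.63-fold, edgeR adjusted p = 0.00145), and 11 of 11 fish oil libraries lay above the mean of their own control group. MiR-30a-5p rose by 0.62 (SE 0.168, 1.53-fold, edgeR adjusted p = 0.00480), with 9 of 11 above. Relative to all reads neither was higher: with library sizes set to the implied read totals, the log2 differences were −0.21 for miR-30e-5p (SE 0.329, edgeR adjusted p = 0.592) and −0.28 for miR-30a-5p (SE 0.288, edgeR adjusted p = 0.415). On that scale the median of all miRNAs stood at −0.87.

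For the other members the interval of the difference is more informative than the call. MiR-30d-5p, the second most abundant, had a log2 difference of −0.05 with a 95% confidence interval of −0.35 to 0.24, whose upper end lay below both of the rises above. MiR-30e-3p had −0.15 (−0.50 to 0.20) and miR-30a-3p 0.13 (−0.32 to 0.58). MiR-30c-5p had 0.42 with the widest interval, −0.16 to 1.001 (edgeR adjusted p = 0.259), and that interval includes rises as large as those of miR-30a-5p and miR-30e-5p. Relative to all reads, miR-30d-5p fell by 1.01 (SE 0.251, edgeR adjusted p = 0.00128) and miR-30e-3p fell by 1.07 (SE 0.344, edgeR adjusted p = 0.00867), and these were the only members called on that scale.

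In ozone, where 22.8% of all miRNAs were called and 12.5% were called higher, 2 of 6 members were: miR-30a-5p rose by 0.90 (SE 0.242, 1.86-fold, edgeR adjusted p = 0.0101, 5 of 5 libraries above the control mean) and miR-30e-5p by 0.83 (SE 0.234, 1.78-fold, edgeR adjusted p = 0.0108, 5 of 5). The call of miR-30e-5p in ozone rested on fish oil ozone 3, without which its log2 difference was 0.55 (edgeR adjusted p = 0.112). Without that library 4 of 144 miRNAs were called higher and 8 lower, against 17 and 14 of 136 with it. MiR-30a-5p stayed called there (edgeR adjusted p = 0.0487). In air, where 5.88% of miRNAs were called, 0 of 6 members were called by edgeR with TMM scaling or by DESeq2. An unadjusted edgeR p below 0.05 was found for 39 of all 136 miRNAs and for 1 member, miR-30e-5p. The log2 difference of miR-30e-5p was 0.58 (SE 0.224, edgeR adjusted p = 0.102, 6 of 6 libraries above the control mean). Relative to all reads, the log2 differences of miR-30a-5p and miR-30e-5p in ozone were −0.053 and −0.032, and neither was called. On that scale miR-30d-5p was called lower in both exposures: it fell by 1.03 in air (SE 0.345, edgeR adjusted p = 0.0250) and fell by 0.9965 in ozone (SE 0.365, edgeR adjusted p = 0.0362). The fish oil differences in air and in ozone were not shown to differ: in the interaction 0 of 6 members and 0.0% of all miRNAs were called by edgeR (0 members at an unadjusted p below 0.05, 0 by DESeq2), and the largest member value was 0.56 for miR-30a-5p (SE 0.335, edgeR adjusted p = 0.916).

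**Figure D2:**
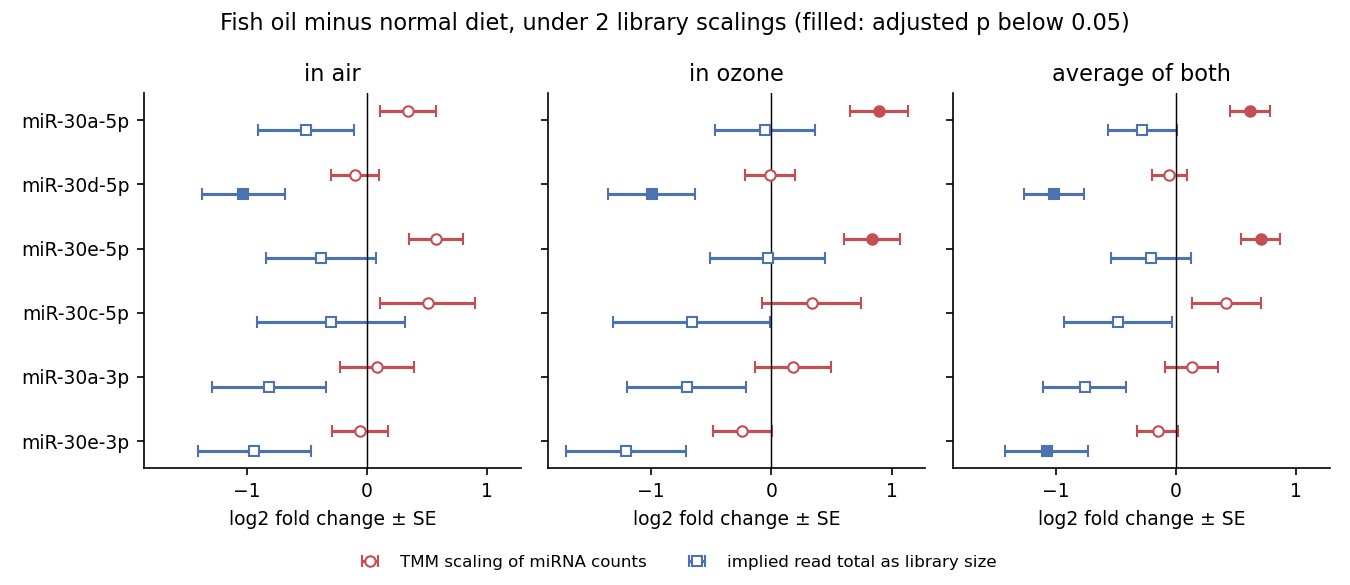
Log2 fold change of fish oil over normal diet for each member (points) with its SE (bars), in air, in ozone and averaged, with TMM scaling (circles) and scaled to implied read totals (squares); filled points have an adjusted p below 0.05. The 6 members keep nearly the same spacing under both scalings, but the whole set shifts down relative to all reads, from a median of 0.28 to −0.62 for the average. MiR-30a-5p and miR-30e-5p are called higher only under TMM. MiR-30d-5p, and for the average also miR-30e-3p, are called lower only relative to all reads.

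A ratio of 2 members counted in the same library does not depend on how libraries are scaled. MiR-30e-5p gained on miR-30d-5p under fish oil. Its ratio to miR-30d-5p was 0.280, 0.370, 0.522, 0.366, 0.394 and 0.373 in normal diet rats breathing air and 0.231, 0.375, 0.415, 0.259, 0.344 and 0.548 in ozone. On fish oil it was 0.461, 0.462, 0.974, 0.656, 0.691 and 0.590 in air and 0.452, 1.53, 0.632, 0.493 and 0.436 in ozone. Averaged over exposures the ratio was 1.71-fold higher on fish oil (log2 difference 0.78, SE 0.217, 11 of 11 libraries above the control mean; exact permutation test within exposures, two-sided, p = 0.000265, adjusted p = 0.00124 over the 6 pairs of 5p members). In air alone it also passed (log2 difference 0.71, exact permutation adjusted p = 0.0390, 6 of 6), but in only 4 of the 12 fits that each left out 1 library; it was lost without normal diet air 1, 2, 5 or 6 or without fish oil air 3, 4, 5 or 6 (exact permutation adjusted p up to 0.0779). In ozone alone it did not pass (0.84, exact permutation adjusted p = 0.0909, 5 of 5).

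MiR-30d-5p lost ground against miR-30a-5p in the same way. The ratio of miR-30d-5p to miR-30a-5p had lowest, median and highest values of 0.377, 0.576 and 0.694 in normal diet rats breathing air and 0.411, 0.676 and 0.864 in ozone, against 0.315, 0.403 and 0.507 on fish oil in air and 0.203, 0.335 and 0.552 in ozone. Averaged over exposures it was 0.616 times the normal diet value (log2 difference −0.70, SE 0.163, above the control mean in 0 of 11 libraries; exact permutation p = 0.000415, adjusted p = 0.00124). Within single exposures it did not pass (exact permutation adjusted p = 0.0714 in air and 0.0649 in ozone). MiR-30e-5p and miR-30a-5p, the strands a single base apart, kept closer to each other: their ratio had a log2 difference of 0.08 (SE 0.139, exact permutation adjusted p = 0.579, above the control mean in 7 of 11 libraries). None of the 3 pairs with miR-30c-5p passed (exact permutation adjusted p from 0.380 to 0.579). Pairs of other miRNAs were not compared, and 36.8% of all miRNAs were called for fish oil averaged over exposures. Shifts of this size were therefore not shown to be particular to the family.

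As shares of the 6 members' own counts, miR-30d-5p made up a mean of 29.3% in normal diet rats breathing air and 31.1% in ozone, and 22.8% and 20.9% on fish oil. MiR-30a-5p made up 52.2% and 48.3% against 56.5% and 59.5%, and miR-30e-5p 11.2% and 10.8% against 14.1% and 12.9%. The family was thus weighted less towards miR-30d-5p on fish oil and further towards miR-30a-5p and miR-30e-5p. These shares sum to the whole and so cannot move independently.

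The arms of the miR-30e hairpin shifted with the diet as well. The ratio of miR-30e-5p to miR-30e-3p was 2.33, 2.07, 4.04, 3.97, 4.24 and 2.70 in normal diet rats breathing air and 1.42, 2.50, 2.85, 2.00, 1.94 and 2.38 in ozone. On fish oil it was 4.11, 4.93, 3.31, 5.01, 5.19 and 7.58 in air and 4.78, 7.72, 3.85, 3.45 and 3.22 in ozone. In ozone every fish oil library lay above every normal diet library, and miR-30e was the single hairpin of 14 whose groups did not overlap there (7.14%); in air the groups overlapped between 3.31 and 4.24.

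Of all hairpins in the table, 14 had both arms among the tested miRNAs, and miR-30e was the only one of them called for fish oil averaged over exposures (7.14% of hairpins). Its 5p to 3p ratio was 1.79-fold higher (log2 difference 0.84, SE 0.182, 11 of 11 libraries above the control mean; exact permutation p = 8.2e-05, adjusted p = 0.00115 over the 14). It was also the only one called in ozone (7.14%), at 2.05-fold (log2 difference 1.03, SE 0.270, exact permutation p = 0.00216, the smallest that 6 against 5 libraries allow, adjusted p = 0.0303, 5 of 5). Leaving out 1 library gave log2 differences from 0.83 to 1.14 over 11 fits. The adjusted p was 0.111 without any 1 normal diet ozone library and 0.0667 without fish oil ozone 1, 3 or 5 (exact permutation), which are the smallest values that a hairpin called alone can reach with so few libraries, so these fits say nothing about the stability of the call. In air, where 0.0% of hairpins were called and miR-30e had the smallest p of the 14, its log2 difference was 0.65 (SE 0.246, exact permutation p = 0.0281, adjusted p = 0.394, 6 of 6). The hairpins miR-21 (0.88) and let-7d (0.63) had differences of similar size and exact permutation adjusted p-values of 0.0502 each, so a shift of this size was not shown to be particular to miR-30e.

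The miR-30a hairpin had a difference of the same sign that did not pass the test. Its ratio of 5p to 3p had lowest, median and highest values of 14.1, 19.8 and 72.3 in normal diet rats breathing air, 12.8, 14.3 and 21.5 in ozone, 20.5, 29.7 and 37.7 on fish oil in air, and 17.1, 28.02 and 32.5 in ozone. The highest of all 23 values, 72.3, came from normal diet air 4, which had 20 counts of miR-30a-3p. Averaged over exposures the log2 difference was 0.51 (SE 0.220, 9 of 11 libraries above the control mean) and did not reach the threshold (exact permutation p = 0.0304, adjusted p = 0.106). Without normal diet air 4 it was 0.68 and passed (exact permutation adjusted p = 0.00430). In ozone alone it was 0.74 (SE 0.211, exact permutation p = 0.0130, adjusted p = 0.0909, 5 of 5).

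**Figure D3:**
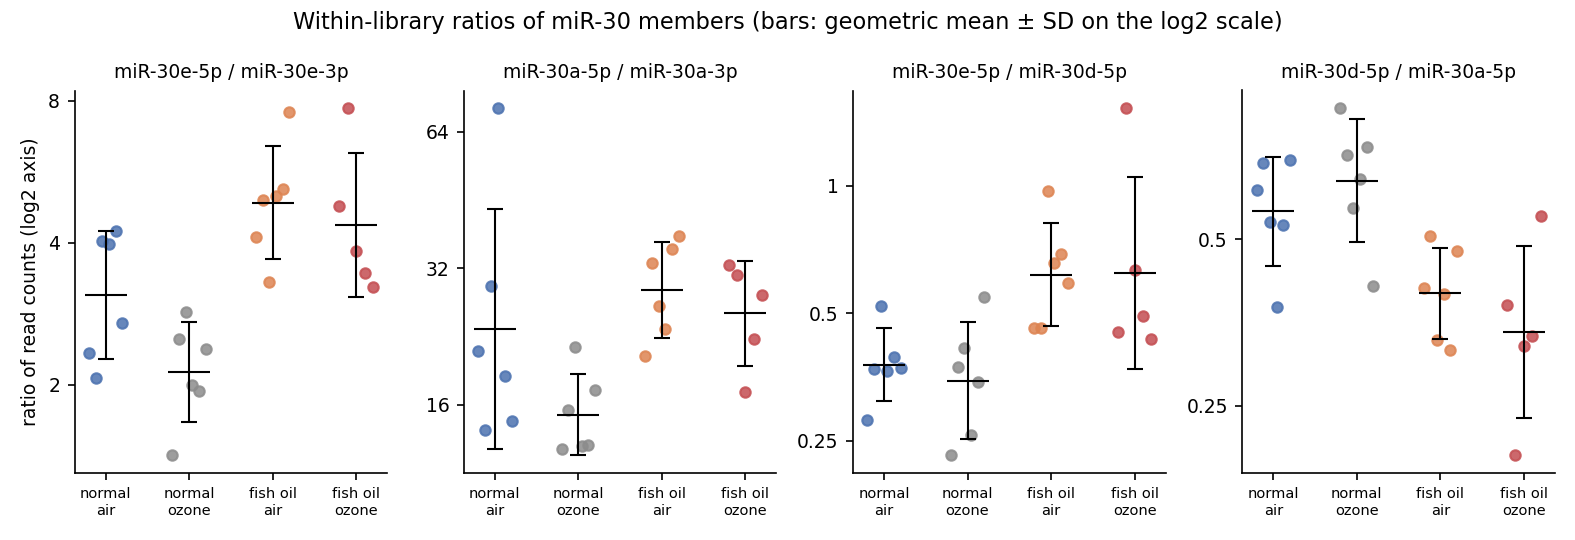
Ratios of read counts within each library, on log2 axes, for the arms of miR-30e and of miR-30a and for the pairs miR-30e-5p to miR-30d-5p and miR-30d-5p to miR-30a-5p; points are libraries and bars give the geometric mean ± SD on the log2 scale (n = 6, 6, 6 and 5). The miR-30e arm ratio of every fish oil ozone library (3.22 or more) lies above every normal diet ozone library (2.85 or less).

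**Figure D4:**
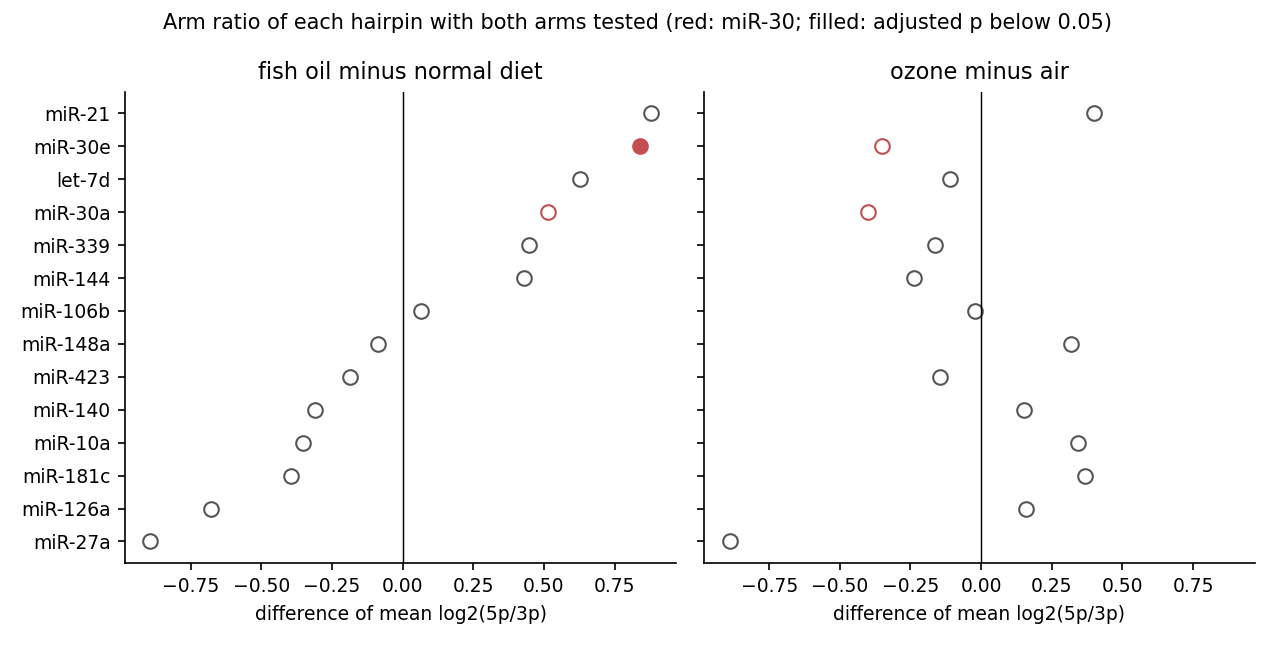
Difference of the mean log2 ratio of 5p to 3p counts for the 14 hairpins with both arms tested, for fish oil averaged over exposures (left) and ozone averaged over diets (right); miR-30 hairpins are red and filled points have an adjusted p below 0.05. MiR-30e, at 0.84 for fish oil, is the only filled point, and both miR-30 hairpins lie below 0 for ozone without passing.

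Ozone changed no member by the test. For ozone averaged over diets, 0.735% of all miRNAs were called and 0 of 6 members were, by edgeR and by DESeq2. An unadjusted edgeR p below 0.05 was found for 4 of all 136 miRNAs, and 2 of those were members. These 2 were the strands of the 3′ arm: miR-30a-3p had a log2 difference of 0.52 (SE 0.220, edgeR adjusted p = 0.794, above the control mean in 9 of 11 libraries) and miR-30e-3p 0.39 (SE 0.170, edgeR adjusted p = 0.794, 11 of 11). Their p-values ranked 3 and 4 among the 136 miRNAs. The strands of the 5′ arm had smaller values, from 0.09 for miR-30e-5p to 0.20 for miR-30c-5p, and the medians were 0.17 over the 6 members and −0.02 over all miRNAs. Relative to all reads the 5p values were larger, from 0.32 for miR-30d-5p to 0.48 for miR-30c-5p. The 3p values were 0.59 for miR-30e-3p and 0.81 for miR-30a-3p on that scale, and 0 members were called by edgeR. The medians there were 0.47 over the 6 members and 0.23 over all miRNAs.

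By library, miR-30e-3p had 1419, 2272, 1535, 1372, 1249 and 1934 CPM in normal diet rats breathing air and 2388, 2358, 1650, 2085, 2410 and 2825 in ozone. On fish oil it had 1637, 1087, 2185, 2104, 1435 and 1004 CPM in air and 1693, 1808, 2003, 2489 and 1669 in ozone. On the normal diet 4 of 6 ozone libraries lay above the highest air library; on fish oil 1 of 5 did. MiR-30a-3p had lowest, median and highest values of 538, 1114 and 1368 CPM in normal diet rats breathing air and 924, 1423 and 1932 in ozone, and of 688, 906 and 1748 on fish oil in air and 789, 1447 and 2334 in ozone, with the groups overlapping on both diets. These strands were thinly counted: 1 count was worth 9.43 to 38.9 CPM across libraries and 3 counts, taken as the lowest level that can be told from 0, 28.3 to 117 CPM.

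On each diet taken alone, 0 of 6 members and 0.0% of all miRNAs were called for ozone by edgeR, and 0 members by DESeq2. On the normal diet 4 of all 136 miRNAs and 1 member, miR-30e-3p, had an unadjusted edgeR p below 0.05. The log2 difference of miR-30e-3p was 0.48 (SE 0.232, edgeR adjusted p = 0.939, 6 of 6 above the control mean). On fish oil 0 members and 10 of all 136 miRNAs had such a p. The largest member value there was 0.57 for miR-30a-3p (SE 0.321, edgeR adjusted p = 0.667). The arm ratios were not called for ozone either. Averaged over diets they differed by −0.35 for miR-30e and −0.40 for miR-30a on the log2 scale (exact permutation p = 0.0666 and 0.0706, adjusted p = 0.494 for both), and 0.0% of hairpins were called there and on either diet. No pair of 5p members passed for ozone averaged over diets (exact permutation adjusted p = 0.984 for each of the 6 pairs).

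MiR-30c-5p varied between rats more than between groups. Its lowest, median and highest values were 473, 561 and 712 CPM in normal diet rats breathing air, 191, 555 and 1367 in ozone, 396, 595 and 1776 on fish oil in air, and 516, 770 and 1578 in ozone. Among the 135 other tested miRNAs, the one whose deviations from the group means were most like its own was miR-451-5p, a miRNA of red blood cells (Pearson r = 0.747, Spearman rho = 0.797 over the 23 libraries), followed by miR-27a-3p (r = 0.695, rho = 0.583) and miR-29a-3p (r = 0.660, rho = 0.483). These likenesses are descriptions, since libraries share scaling, depth and composition. The highest value of miR-30c-5p, in fish oil air 3, came with a log2 ratio of miR-451-5p to miR-23a-3p of −1.25, and the lowest, in normal diet ozone 1, with −4.11. That ratio rises when red cells break and had a median of −2.17 over the 23 libraries. Other libraries went differently: normal diet ozone 6, at 1367 CPM, had −2.52, and fish oil ozone 5, with the highest ratio (−0.568), had 895 CPM. The ratio contains miR-451-5p itself, so it is not independent of the likeness above. Whether red cells were a source of miR-30c-5p was not tested. With that ratio as a covariate, the fish oil difference of miR-30c-5p averaged over exposures was 0.21 on the log2 scale in place of 0.42, and it was called in neither fit (edgeR adjusted p = 0.572 and 0.259), while miR-30a-5p stood at 0.60 and miR-30e-5p at 0.68, both still called.

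The other members kept different company. MiR-30a-5p was most like miR-143-3p, a smooth muscle miRNA (r = 0.833, rho = 0.813), miR-10a-5p (r = 0.780, rho = 0.759) and miR-99b-5p (r = 0.679, rho = 0.633), with miR-30e-5p at rank 6 of 135 (r = 0.623, rho = 0.546). MiR-30e-5p was most like miR-101a-3p (r = 0.805, rho = 0.817), miR-21-5p (r = 0.781, rho = 0.692) and miR-29a-3p (r = 0.757, rho = 0.726). MiR-30d-5p was most like let-7b-5p (r = 0.775, rho = 0.690), let-7c-5p (r = 0.744, rho = 0.655) and miR-676 (r = 0.737, rho = 0.587), and miR-30e-5p stood at rank 84 for it (r = −0.059, rho = 0.003). The 3 abundant 5p strands thus had different nearest neighbours over these rats.

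The strands of the 3′ arm resembled each other. MiR-30e-3p was the nearest of 135 miRNAs to miR-30a-3p (r = 0.588, rho = 0.605), ahead of miR-28-3p (r = 0.564, rho = 0.552) and the liver miRNA miR-122-5p (r = 0.499, rho = 0.527). For miR-30e-3p the nearest was miR-26b-5p (r = 0.656, rho = 0.717), then miR-30a-3p and miR-21-5p (r = 0.461, rho = 0.534). Each was less like the strand from its own hairpin: miR-30a-3p and miR-30a-5p had r = 0.358, and miR-30e-3p and miR-30e-5p r = 0.270. Both 3p strands were thinly counted, with 19 to 197 counts per library.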

How the data were processed

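Small RNA from serum was sequenced, 1 library per rat. The table of expected counts per miRNA locus was deposited by the authors (832 loci, 50 with fractions); the authors' RPM table scales them to a read total that is not stated, worked out here as 2243916 to 7729949 reads. Tools named in the submitters' processing notes are Bowtie 1.0.0, Partek and bcl2fastq, and the build is rn5; for filters and multiply matching reads the method is not given in the sources used here. Columns were joined to samples by animal number, loci of a name summed and rounded. Of 440 names with counts, 136 passed edgeR's filterByExpr (minimum count 10, total 15) and held 99.3% of counts. All groups entered a single fit in edgeR 4.0.16 (TMM, robust quasi-likelihood F test), in R 4.3.3, with Benjamini-Hochberg adjustment. Ratios used log2((count + 0.5)/(count + 0.5)) and exact permutation tests, for averages within the other factor. Likeness used log2 CPM (prior count 2). Named miRNAs were the 6 members in every comparison, their relatives, and for likeness the 3 of highest r. Alternatives were DESeq2 1.42.0, limma 3.58.1 on log2(RPM + 1) or log2(RPM + 0.1), other library sizes, no filter, a haemolysis covariate, a pseudocount of 1 in ratios and each library left out. Scripts were tested on simulated data. Floors and counting limits cover counting error only, since reads are not independent molecules. Members and lists were chosen with earlier results of these data known.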

Additional observations from a re-analysis of the deposited data

Results flagged for a closer look

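In 56 tests of a group's highest and lowest library against the rest (levels and ratios of the members), 2 values stood apart by Dixon's 95% criterion, which chance alone would flag in about 1 of 20 groups. The level of miR-30a-5p in normal diet air 4 was 39868 CPM, the highest of its group, with the next library at 25528. The log2 ratio of miR-30d-5p to miR-30c-5p in fish oil ozone 3 was 2.53 (5.78 to 1), the lowest of its group, with the next library at 4.07; this library was also the only one in which miR-30e-5p exceeded miR-30d-5p.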

How the results depend on the processing

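The scaling decided which members were called for fish oil and in which direction, but no member was called in opposite directions. Averaged over exposures, miR-30a-5p had log2 differences of −0.28 with the implied read total, −0.25 with limma on RPM at a pseudocount of 1 and −0.25 at 0.1, and miR-30e-5p had −0.21, −0.17 and −0.17. In ozone the same settings gave −0.053, −0.0572 and −0.0575 for miR-30a-5p and −0.032, −0.12 and −0.12 for miR-30e-5p. The median of all miRNAs moved with them, to −0.87, −0.74 and −0.84 for the average over exposures; for ozone averaged over diets the implied read total moved it from −0.02 to 0.23. The number of members called for fish oil in air was 1 with the total miRNA count (miR-30e-5p higher), and 1 with the implied read total and with either RPM setting (miR-30d-5p lower); in ozone it was 1 with the implied read total and either RPM setting (miR-30d-5p lower). DESeq2, no low-count filter and the haemolysis index as a covariate each gave 2 members called higher for the average and for ozone, as did a library size without the 5 most abundant miRNAs. The cause was not tested.

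Leaving out single libraries, the members called for fish oil in ozone ranged from 1 to 2. Of the hairpins miR-30a and miR-30e, the number called ranged from 1 to 2 for the average (2 without normal diet air 4). In ozone it ranged from 0 to 2 (2 without fish oil ozone 4). Calls of other hairpins were not counted in these fits. In ozone neither miR-30 hairpin was called without any one normal diet ozone library or without fish oil ozone 1, 3 or 5. There the smallest p that fewer libraries allow cannot pass for a hairpin alone, so these fits say nothing about stability. Pairs of 5p members called ranged from 0 to 2 both in air (2 without normal diet air 4 or fish oil air 2) and in ozone (2 without normal diet ozone 6, 1 without fish oil ozone 6, otherwise 0). For the average over exposures, the miR-30e arm ratio and the ratios of miR-30d-5p to miR-30e-5p and to miR-30a-5p passed in all 23 fits. Of 2158 recomputed single values, 2108 kept their direction or stayed uncalled, while 18 lost and 20 gained a call. The other 12, all listed above, changed sign and lost their call (edgeR or limma adjusted p from 0.415 to 0.969). No paired analysis was possible because the replicate numbers are accession order and the animal numbers run in separate blocks per group, so they pair no rats. MiR-30c-5p and both 3p strands had the fewest counts of the members; how much of their spread is counting error was not tested.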

Other observations

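The remaining names of the family were too rare to test. Over the 23 libraries miR-30d-3p had 61 counts (19 libraries, at most 9 in a library), miR-30c-2-3p 42 (15 libraries, at most 6) and miR-30c-1-3p 8 (5 libraries, at most 3). MiR-30d-5p, with 15294 counts, was therefore accompanied by few copies of its own 3p strand, whereas miR-30e-3p reached 2163 counts beside 6994 of miR-30e-5p. The seed of both miR-30c strands from the 3′ arm, UGGGAGA, was shared by 2 of the 693 RefSeq names. MiR-384-5p, which shares the seed of miR-30a-5p, miR-30c-5p and miR-30e-5p, had 7 counts in 5 libraries, 0 of them on the normal diet. The names of miR-30b were not analysed here.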
